A study of Mus musculus with 96 samples.

Results

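Striatal microRNA hairpins of heterozygous Q20 knock-in mice were counted at 10 and at 6 months of age, to describe how their levels differed between these ages on a genotype that the study treated as a control. The libraries were chosen by their labels, as all libraries of heterozygous Q20 mice, and they were 16 of the 96 striatum libraries of the series, 8 at 10 months and 8 at 6 months. Each library came from 1 mouse, with 4 females and 4 males at each age, and the mice of the 2 ages were different animals, so no mouse was followed over time. All were labelled as of the C57BL/6 strain (by the study's methods, heterozygous males were mated with C57BL/6J females). They were housed together with wild-type mice of the same sex, and carried 1 wild-type *Htt* allele beside 1 allele (*Htt* tm2Mem) with human *HTT* exon 1 and 20 CAG repeats. By the study's methods, a litter gave at most 1 animal per sex and genotype. The 80 other libraries, used only for comparison, came from wild-type littermates of the Q20 line, wild-type littermates of the Q50 line and heterozygous Q50, Q92 and Q140 mice at the same ages.

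A microRNA is cut from a hairpin-shaped precursor, is loaded into an Argonaute protein and pairs through its seed with messenger RNAs, which lowers their stability or translation. The striatum is a forebrain nucleus made up largely of medium spiny projection neurons, with interneurons, glia and vessels among them, and it is the region most affected in Huntington's disease. In tissue of this kind, a lower level from fewer cells of a type and a lower level from less RNA per cell cannot be told apart.

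The hairpins were given by miRBase identifiers that none of the tables at hand pair with microRNA names (0 identifiers matched). The 4 described one by one are therefore given by identifier, without a role or a sequence, and the others by counts and ranges. For the same reason, neither the labelled tissue nor the cell types in it could be checked against marker microRNAs. Of 1187 hairpins in the table, 923 had a count in at least 1 Q20 library and 421 had enough counts to be tested.

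Library depth overlapped between the ages. Total counts were 7010101 ± 2741679 in 10-month and 6465553 ± 902333 in 6-month libraries (mean ± SD, n = 8 each), and differed by 544548 (exact two-sided permutation test, p = 0.654), which turned to -244140 when the deepest library, from a 10-month male, was left out. The single libraries had 4169005 to 12530915 counts at 10 months and 5346453 to 8231616 at 6 months. No 2 Q20 libraries agreed within sampling noise. A library of a 6-month female stood apart by its normalisation factor, 0.879 against 0.960 to 0.989 in the 7 others of its age, and a library of a 10-month female had the lowest connectivity of the Q20 libraries (Z = -4.37, above the study's limit of -5).

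Each library's description ends in an L number whose meaning is not stated, and it nearly followed age. Of the 10-month libraries, 6 had L4, 1 had L5 and 1 had L3, while of the 6-month libraries 6 had L5, 1 had L4 and 1 had L6. The 10-month library with L5 was the female library of lowest connectivity in Q20 (Z = -4.37). The leading numbers of the descriptions also kept the ages apart over the whole series, with 0 of the 6-month libraries above the lowest of the 10-month ones. Whatever went with those numbers and age cannot be told apart, and "age" below stands for the difference between these libraries.

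Levels of 72 of the 421 hairpins tested differed between the ages at an adjusted p below 0.05 (17.1%), with 34 higher at 10 months (8.08%) and 38 lower (9.03%). At an unadjusted p below 0.05 there were 124. Without the 6-month female library that stood apart 64 hairpins were called, and without the 10-month female library of low connectivity 62. The changes were mostly small. The 34 hairpins that were higher at 10 months had a median log2 difference of 0.58 (0.28 to 1.68), and the 38 that were lower had a median of -0.38 (-1.30 to -0.20). The median over all hairpins tested was -0.01. Differences beyond 1 log2 unit were reached by 7 of those that rose and 2 of those that fell, whereas 14 and 27 of them differed by less than 0.5. The test was edgeR's quasi-likelihood F test with sex as a covariate and Benjamini-Hochberg adjustment.

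How many calls remained with the L number taken into account depended on the libraries in the fit. With the L number as a factor over the 16 Q20 libraries, 2 hairpins were called. With it as a factor over all 96 libraries, where the other genotypes also inform it, 84 were called in Q20, 52 higher and 32 lower at 10 months, and 56 of the 72 were among them. All 72 kept their direction in both fits.

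Within a single L number, one age was represented by 1 library, which was assumed to vary like the others. Within L4, with 1 library of 6 months, 5 hairpins were called, 2 of them among the 72. Within L5, with 1 library of 10 months, 50 were called, 14 of them among the 72, so those counts rest largely on the single library. The hairpins called higher over all 16 libraries had a median log2 difference of 0.52 within L4 and 0.79 within L5, and those called lower had -0.37 and -0.52. Of the 72, 67 kept their direction within L4 and 70 within L5. Since these libraries also entered the test that picked the 72, these medians and directions are a description. The single 10-month library of L5 was also the Q20 library of lowest connectivity, so the values within L5 rest on an atypical library.

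**Figure D1:**
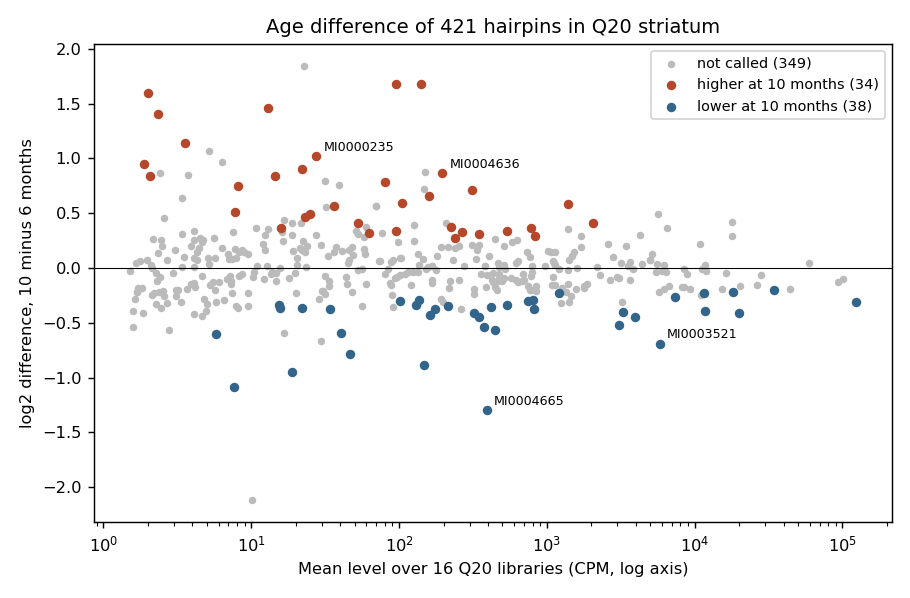
Difference between the ages (log2, 10 minus 6 months) for each of 421 hairpins against its mean level over the 16 Q20 libraries (CPM, log axis). The 34 hairpins called higher at 10 months reach up to 1.68 and lie mostly at lower levels, and the 38 called lower extend to the most abundant hairpin of the tissue.

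Rises prevailed among the hairpins of low level and falls among those of high level, as the plot of difference against level shows. Levels are CPM, which set each count against its TMM-adjusted library total and are not divided by length, so that the classes sort hairpins by how well they were counted. Below 10 CPM, 7 hairpins rose and 2 fell, and between 10 and 100 CPM 13 rose and 7 fell. Between 100 and 1000 CPM, 12 rose and 17 fell, and above 1000 CPM 2 rose and 12 fell. The called shares of these classes, lowest to highest, were 8.33% of 108, 18.7% of 107, 25.4% of 114 and 15.2% of 92 hairpins. The median standard error of the log2 difference was 0.20 in the lowest class and 0.10 in the highest, so smaller differences could pass the test among abundant hairpins.

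The balance of rises and falls moved with the scaling. TMM factors were 1.03 to 1.05 in the 10-month libraries and 0.879 to 0.989 in the 6-month ones, with no overlap. When libraries were scaled by their totals alone, 88 hairpins were called, of which 69 were higher and 19 lower at 10 months, and the median over all hairpins shifted by 0.10. With the RLE factors the split was 35 higher and 34 lower. All 72 hairpins kept their direction under both.

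The lowest adjusted p-values in either direction belonged to MI0004636 and MI0000235, which were higher at 10 months, and MI0004665 and MI0003521, which were lower. MI0004636 had 197, 250 and 306 CPM in the lowest, the median and the highest 10-month library, against 108, 141 and 172 CPM at 6 months. Every 10-month library lay above every 6-month library, in both sexes. The means were 253 ± 38.0 CPM at 10 months and 139 ± 19.6 CPM at 6 months (SD, n = 8 each), a log2 difference of 0.87 ± 0.11 (SE, edgeR adjusted p = 1.01e-04).

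MI0000235 was counted more thinly, with 175 to 419 counts per 10-month library and 72 to 178 per 6-month library. Its level was 32.5, 36.9 and 41.9 CPM in the lowest, the median and the highest 10-month library, against 12.4, 16.3 and 26.9 CPM at 6 months. The ages did not overlap, and the 6-month libraries were the more scattered, with 3 of the 8 above 20 CPM. The log2 difference of 1.02 ± 0.17 corresponded to 2.03-fold more at 10 months (edgeR adjusted p = 0.00128).

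MI0004665 showed the largest fall among the hairpins called, and in at least 1 Q20 library its value was not whole and was rounded. It had 180, 223 and 268 CPM in the lowest, the median and the highest 10-month library, against 349, 528 and 855 CPM at 6 months. The 10-month libraries lay close together below all those of 6 months, among which 1 female (855 CPM) and 1 male (798 CPM) stood well above the rest. The library of that female was the only Q20 library with L6, and that of the male had L5. The log2 difference was -1.30 ± 0.17 (edgeR adjusted p = 1.01e-04), so that 10-month libraries held 0.406 of the 6-month level.

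MI0003521 was the best counted of the 4, with at least 13399 counts in every library. Its level was 3097, 4372 and 5882 CPM in the lowest, the median and the highest 10-month library, against 6177, 6932 and 8721 CPM at 6 months. The ages again did not overlap, although the highest 10-month library and the lowest 6-month library, both of males, lay close to each other. Its log2 difference was -0.69 ± 0.11 (edgeR adjusted p = 0.00121).

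**Figure D2:**
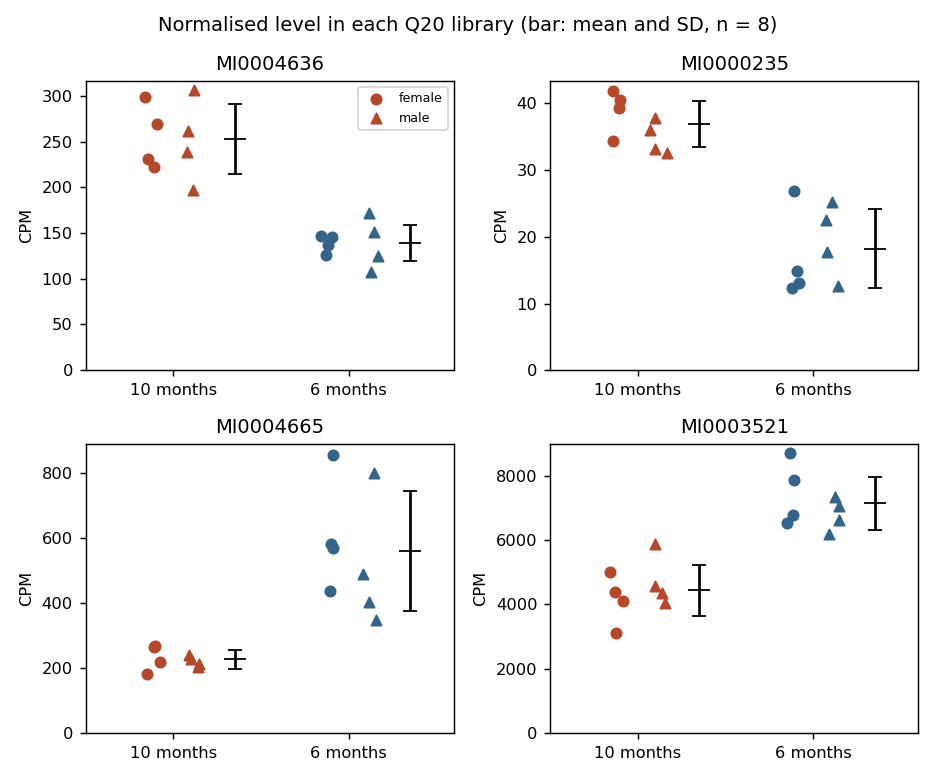
Normalised level (CPM) of the 4 named hairpins in each Q20 library, 10 months on the left and 6 months on the right of each panel, with circles for females and triangles for males. The black bars give the mean and SD of 8 libraries, and in each panel the libraries of the 2 ages do not overlap.

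Since the ages did not overlap in these 4 hairpins, the 2 libraries whose L number was the common one of the other age necessarily lay with their own age, and their values are given as a description. The 10-month library with L5 had 299 CPM of MI0004636, against 108 to 172 CPM in the 6-month libraries with L5. For MI0003521 it had 4110 CPM, against 6177 to 8721 CPM in those libraries. For MI0004665 it had 268 CPM, against 402 to 798 CPM, and was the highest 10-month library. The lowest 10-month library for MI0004665, at 180 CPM, was the one with L3. At 6 months the library with L4 was the lowest, at 349 CPM, and the one with L6 the highest, at 855 CPM. Within each age the level of MI0004665 thus went up with the L number, for a reason that was not tested.

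The 6-month library with L4 had 25.3 CPM of MI0000235, compared with 32.5 to 39.3 CPM in the 10-month libraries with L4, and lay between them and most of the other 6-month libraries. With the L number as a factor over the 16 Q20 libraries, MI0004636 remained called, while MI0000235 (0.85, adjusted p = 0.0855), MI0004665 (-0.82, adjusted p = 0.0718) and MI0003521 (-0.70, adjusted p = 0.0645) no longer passed the edgeR test. With it as a factor over all 96 libraries all 4 were called in Q20, MI0004636 at 0.85 (adjusted p = 5.40e-07), MI0000235 at 1.03 (adjusted p = 1.79e-04), MI0004665 at -1.09 (adjusted p = 4.67e-06) and MI0003521 at -0.62 (adjusted p = 7.49e-04, all by edgeR). None of the 4 passed the test within L4 alone, with its 1 library of 6 months, where their log2 differences were 0.75, 0.48, -0.64 and -0.47 in the order given above.

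Among the other hairpins, the largest rise called was 1.68 ± 0.32 on the log2 scale (edgeR adjusted p = 0.00381). That hairpin had 125, 186 and 329 CPM in the lowest, the median and the highest 10-month library, against 20.9, 70.1 and 107 CPM at 6 months, with no overlap. In all, 15 of the 421 hairpins (3.56%) had 8 libraries of one age all above or all below the 8 of the other. All 15 were among those called, 7 of them higher and 8 lower at 10 months.

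Some differences of larger size did not pass the test. The most positive of these was 1.85 ± 0.64 (edgeR adjusted p = 0.0588), for a hairpin that reached 54.8 CPM at 10 months and 15.4 CPM at 6 months but had 0.235 CPM in its lowest 10-month library. The most negative, -2.12 ± 1.13 (edgeR adjusted p = 0.229), belonged to a hairpin with a highest value of 9.62 CPM at 10 months and of 104 CPM at 6 months, and with a lowest value of 0 at both ages.

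The hairpins that fell held a far larger part of the counts than those that rose. The 38 called lower took 23.2% ± 0.633 of the counts of a 10-month library and 26.8% ± 1.25 of a 6-month library (mean ± SD, n = 8 each). The 34 called higher took 0.986% ± 0.0841 at 10 months and 0.658% ± 0.0377 at 6 months. These shares describe the hairpins that the same comparison picked, and were not tested.

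The most abundant hairpin of the tissue, first in rank in 14 of the 16 libraries, was among those that fell. It took 10.5%, 11.4% and 13.2% of the counts in the lowest, the median and the highest 10-month library, against 10.7%, 13.2% and 14.7% at 6 months. The ages overlapped widely in this share. Its log2 difference on the TMM scale was -0.31 ± 0.08 (edgeR adjusted p = 0.0103).

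The 8 most abundant hairpins of each library together held 50.1% ± 1.03 of the counts at 10 months and 51.8% ± 0.491 at 6 months, which differed by -1.71 percentage points (exact two-sided permutation test, p = 0.0014, adjusted p = 0.0028 over 2 such tests). Within L4, the mean was 49.8% over 6 libraries at 10 months, and the 1 library of 6 months had 51.0%. Within L5, the 1 library of 10 months had 51.8% and the 6 of 6 months averaged 51.9%. With 1 library of one age in each, these values show no more than where that library lay.

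Spread among the mice of an age was of similar size at both ages. The median SD of log2 CPM over the hairpins tested was 0.26 at 10 months and 0.23 at 6 months, and 254 of the 421 hairpins had the larger SD at 10 months.

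The called hairpins moved in one direction in both sexes of Q20 mice. All 34 hairpins that rose and all 38 that fell had the same sign in females and in males, against 308 of the 421 hairpins tested. The median log2 difference of the 34 was 0.68 in females and 0.50 in males, and that of the 38 was -0.39 in females and -0.37 in males. Since both sexes entered the test that picked these hairpins, the counts are a description.

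Tested in each sex on its own, with 4 mice per age, 6 hairpins were called in females (1.43%) and 3 in males (0.713%). These counts were unstable, at 44 in females and 20 in males with DESeq2, 34 and 6 with library totals alone, 0 and 0 with the L number as a factor, and 4 to 25 and 0 to 11 with a library left out. MI0004636 was called in both, with log2 differences of 0.88 ± 0.16 in females and 0.85 ± 0.16 in males (edgeR adjusted p = 0.00665 and 0.0249). MI0004665 was also called in both, at -1.39 ± 0.24 in females and -1.21 ± 0.24 in males (edgeR adjusted p = 0.00665 and 0.0249). MI0000235 and MI0003521 passed in females and not in males.

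The test of the difference between the sexes called 0 of 421 hairpins, with 9 at an unadjusted p below 0.05, and DESeq2 also called 0. For MI0000235 the female difference exceeded the male one by 0.38 on the log2 scale, with a 95% interval of -0.32 to 1.08. For MI0003521 the female minus the male difference was -0.32 (interval -0.77 to 0.12, edgeR adjusted p = 0.992). The median half-width of these intervals over all hairpins was 0.56, so differences between the sexes smaller than that were in general not detectable with 4 mice per sex and age.

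The wild-type littermates of the Q20 line, in libraries of their own, gave a comparison that used no Q20 library. Fitted alone, their 16 libraries had 38 of 424 hairpins higher (8.96%) and 58 lower (13.7%) at 10 months. All 38 that rose in the littermates were also higher at 10 months in Q20, with a median log2 difference of 0.36 in Q20 and 0.50 in the littermates, and 23 of them were called in Q20. All 58 that fell were also lower in Q20, with medians of -0.32 in Q20 and -0.45 in the littermates, and 30 of them were called in Q20. Over the 417 hairpins tested in both, 318 (76.3%) had the same sign.

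Read the other way, 32 of the 34 hairpins called higher in Q20 could be tested in the littermates, where all 32 were higher at 10 months and 23 were called. All 38 hairpins called lower in Q20 were lower in the littermates, and 30 were called. Across the 417 hairpins the log2 differences of the 2 genotypes had a Pearson correlation of 0.77 and a Spearman correlation of 0.72, as a description over hairpins, which are not independent. In both genotypes the leading numbers of the descriptions were apart between the ages, and the L number was unevenly spread over them. In the littermates, L3 occurred only at 10 months and L6 only at 6 months. What goes with the leading numbers or the L number could thus be shared by both comparisons and was not tested.

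**Figure D3:**
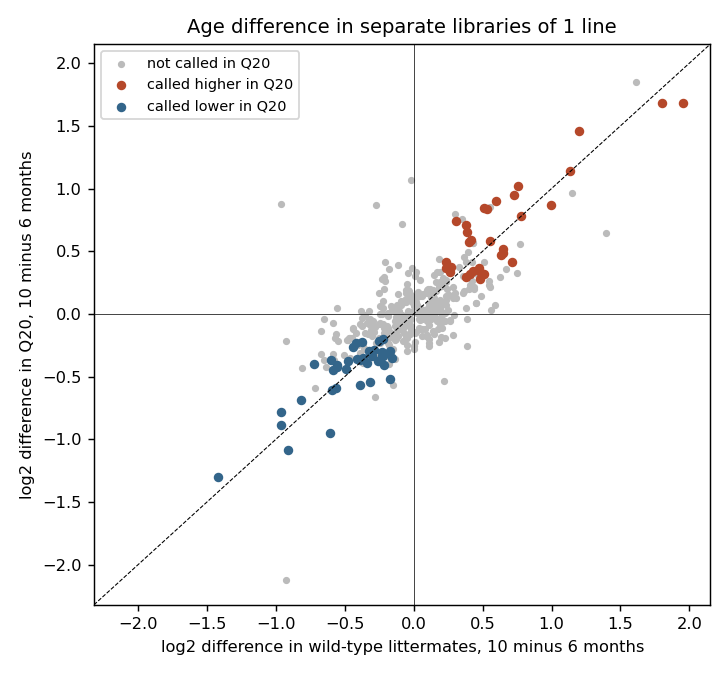
Difference between the ages (log2, 10 minus 6 months) of 417 hairpins in the Q20 libraries against the same difference in the libraries of their wild-type littermates, fitted separately. The hairpins called in Q20 lie where both differences have the same sign, near the dashed line of equal differences.

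The age difference in Q20 was tested directly against that in the littermates over 32 libraries. In this fit 105 of 443 hairpins (23.7%) were called for age in the littermates, and 67 of 443 with the L number as a factor. The difference of the differences was called for 0 of 443 hairpins, with 21 at an unadjusted p below 0.05 (4.74%), and DESeq2 also called 0. Its 95% interval had a median half-width of 0.40 and lay within 1 log2 unit of zero for 374 hairpins.

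For the named hairpins this difference, Q20 minus littermates, was -0.13 (interval -0.50 to 0.24) for MI0004636 and 0.31 (-0.27 to 0.89) for MI0000235. It was 0.14 (-0.32 to 0.59) for MI0004665 and 0.13 (-0.24 to 0.51) for MI0003521. These intervals hold values that would be of the size of many of the age differences called, so that they bound a difference between the genotypes rather than show equality.

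The other genotypes were read for the same 72 hairpins in a fit of all 96 libraries. The 34 hairpins called higher in Q20 were higher at 10 months in each of the 5 other genotypes, 34 of 34 every time. Their medians were 0.55 in the wild-type littermates of Q20, 0.45 in those of Q50, 0.47 in Q50, 0.38 in Q92 and 0.38 in Q140. The median in Q20 itself, from the separate fit of its 16 libraries, was 0.58. Called higher in those genotypes, in that order, were 31, 24, 19, 19 and 17 of the 34. Over all 474 hairpins in the fit of 96 libraries, the numbers called higher were 65, 56, 41, 46 and 39. Of all 421 hairpins, between 45.6% and 53.2% were higher at 10 months in these genotypes, and their medians lay between -0.03 and 0.02.

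The 38 hairpins called lower in Q20 were lower at 10 months in 38 cases in the wild-type littermates of Q20, 37 in those of Q50, 36 in Q50, 37 in Q92 and 38 in Q140. Their medians were -0.36, -0.32, -0.26, -0.35 and -0.29 in that order, against -0.38 in Q20 from the fit of its 16 libraries. Called lower, in the same order, were 28, 24, 17, 21 and 19 of the 38. Over all 474 hairpins in the fit of 96 libraries, the numbers called lower were 55, 45, 27, 35 and 32. Of all 421 hairpins, between 46.8% and 54.4% were lower at 10 months in these genotypes. The values in Q20 are those by which the hairpins called there were picked, so their size in Q20 is a description. In the other genotypes too the leading numbers of the descriptions kept the ages apart. What goes with these numbers could be shared by all genotypes and was not tested.

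**Figure D4:**
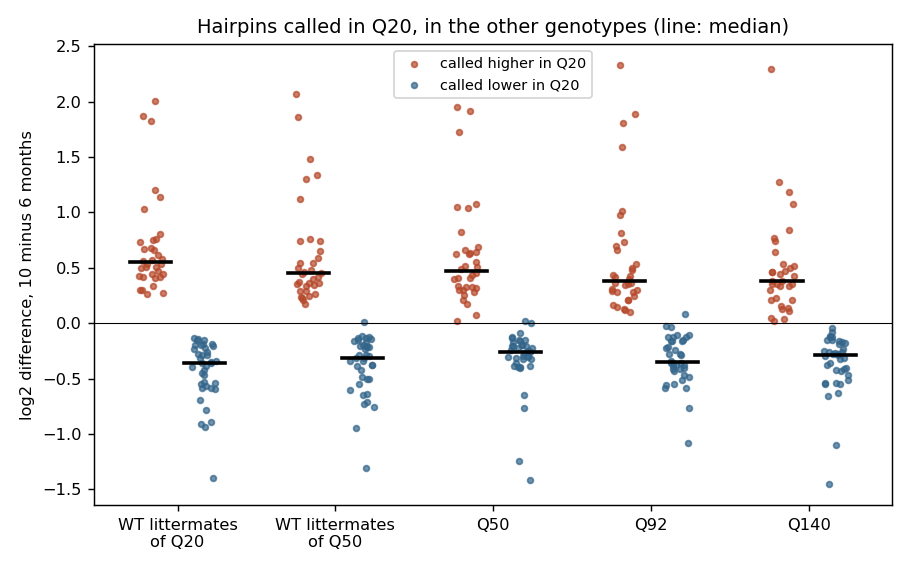
Difference between the ages (log2, 10 minus 6 months) in the 5 other genotypes for the hairpins called in Q20, with those called higher in Q20 on the left and those called lower on the right of each genotype. Black lines give medians, which run from 0.38 to 0.55 for the 34 called higher and from -0.36 to -0.26 for the 38 called lower.

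The age difference in Q20 was also tested against the mean of the 5 other genotypes. It was called for 0 of 474 hairpins, with 35 at an unadjusted p below 0.05 (7.38%), and DESeq2 also called 0. The smallest adjusted p was 0.309, and the median half-width of the 95% interval was 0.31.

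The named hairpins were followed through all genotypes. MI0004636 averaged 254 ± 36.7 CPM in Q20 at 10 months and 137 ± 19.9 CPM at 6 months on the scale of all 96 libraries. In the other genotypes it averaged between 214 and 258 CPM at 10 months and between 111 and 154 CPM at 6 months, and in none of the 6 genotypes did the ages overlap. Its difference in Q20 exceeded the mean of the others by 0.07 on the log2 scale (interval -0.18 to 0.33).

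MI0000235 was less even. The ages were apart in Q20 and in Q50 but overlapped in the 4 other genotypes, where single 6-month libraries reached 39.2 to 52.8 CPM. Its 10-month means lay between 33.7 and 37.0 CPM in all 6 genotypes. The 6-month mean was 17.9 ± 5.73 CPM in Q20 and between 17.5 and 25.2 CPM in the others.

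MI0004665 had a log2 difference of -1.28 in Q20, and of -1.08 in Q92 to -1.45 in Q140 among the other genotypes, in the fit of 96 libraries. The ages overlapped for it in Q50 alone. For MI0003521 the log2 difference was -0.67 in Q20 and -0.39 in Q50 to -0.79 in the wild-type littermates of Q20. Its ages overlapped in Q50 and in Q140, and single 6-month libraries reached 16623 CPM in Q140, 15132 CPM in the wild-type littermates of Q50 and 14462 CPM in those of Q20, against a highest value of 8519 CPM in 6-month Q20.

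An index over the 96 hairpins called in the littermates alone summarised each Q20 library without using the Q20 calls. It is the mean centred log2 CPM of the 38 that rose minus that of the 58 that fell, halved. The lowest, the median and the highest 10-month library had 0.07, 0.21 and 0.40, against -0.33, -0.20 and -0.13 at 6 months. All 10-month libraries lay above all 6-month ones. The 10-month library with L5 had 0.27, and the 6-month library with L4 had -0.16, each within the range of its own age. The L number was also unevenly spread over the ages of the littermates. What goes with it may therefore enter the index, and was not tested.

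**Figure D5:**
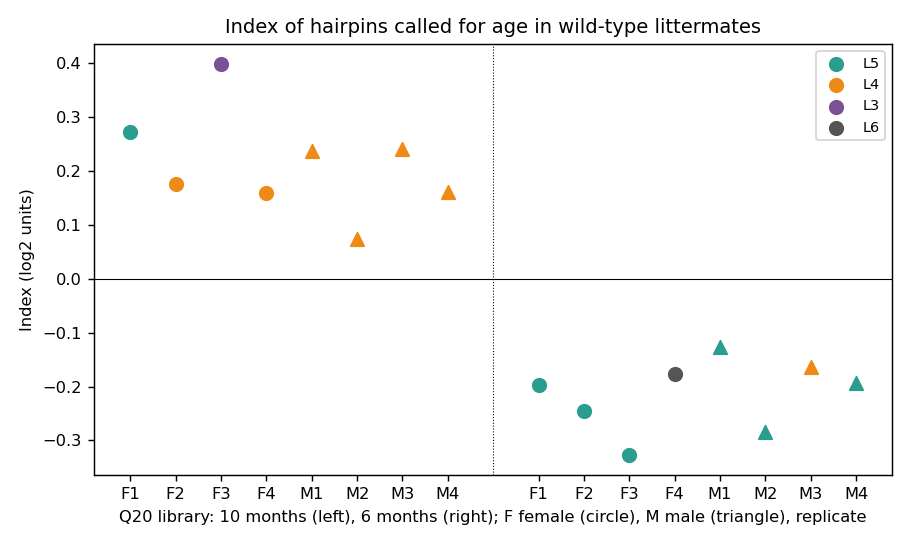
Index of the hairpins called for age in the wild-type littermates (log2 units) in each Q20 library, 10 months on the left and 6 months on the right, with circles for females, triangles for males and colours for the L number. The 10-month libraries lie between 0.07 and 0.40 and the 6-month ones between -0.33 and -0.13, also where a library carries the L number common at the other age.

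Each of these 2 libraries was also set, hairpin by hairpin, against the mean of its own age and the mean of its own L number at the other age. Over the 96 hairpins called in the littermates, the 10-month library with L5 was nearer to its age for 65 (67.7%), against 266 of all 421 hairpins tested (63.2%). The 6-month library with L4 was nearer to its age for 74 (77.1%), against 259 of all 421 (61.5%). These are 2 single libraries, of which the 10-month one had the lowest connectivity in Q20. What the L number stands for was not tested.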

How the data were processed

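Small RNA of mouse striatum was sequenced by the authors on an Illumina instrument; per the study's methods, clipped reads were aligned with STAR to mm10 and counted with HTSeq, and the submitters' processing notes name CASAVA 1.8.2. The table used, as the authors deposited it, holds estimated counts per hairpin. Of its Q20 values above 0, 19.8% were not whole at a tolerance of 0.001, for a reason not given in the sources used here, and values were rounded. A deposited FPKM table was not used. Hairpins that share a mature sequence share reads, so their counts are uncertain.

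Hairpins were kept by filterByExpr (minimum count 10); the 502 others with a count held 0.0175% of the Q20 counts. The test was edgeR's quasi-likelihood F test (version 4.0.16, under R 4.3.3), after TMM scaling, with sex as a covariate, or with sex-and-age or genotype-and-age groups for the interactions; hairpins were called at a Benjamini-Hochberg adjusted p below 0.05, and log2 differences are 10 minus 6 months. The exact permutation tests used SciPy 1.17.1. The fits were tested on simulated data. The study's batch covariate is not in the labels, so no fit adjusts for it. Replicates are single mice. No pair of Q20 libraries came closer than a chi-square of 28.8 per degree of freedom.

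The members and lists were chosen with earlier results of these data known. The naming rule took, per direction, the 2 hairpins of lowest adjusted p, since 21 prepared lists of microRNAs and cell type markers could not be matched to identifiers. Alternatives were RLE factors, library totals, DESeq2 1.42.0, other filters, sex left out, a replicate block, the L number, other sets of libraries, thinning to 4169005 counts, whole values only, the study's replacement of outlying values (448 Q20 values) and each library left out. Chosen after seeing the data were the alternatives for single sexes and littermates, the littermates fitted alone, the index and the test of the 8 most abundant hairpins.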

Additional observations from a re-analysis of the deposited data

Results flagged for a closer look

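One Q20 library was far from the others of its age in 1 of 16 groups of 8 values examined. Chance gives about 1 in 20 such groups. The groups share libraries, and why this library stood apart was not tested. The TMM factor of the library of 6-month female replicate 4, the only Q20 library with L6, was 0.879, and its gap to the nearest of the 7 others (0.960 to 0.989) was 0.740 of the range. Without this library 64 hairpins were called for age, of which 37 were higher and 27 lower at 10 months, and 58 of the 72 remained called.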

How the results depend on the processing

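The 72 calls for age in Q20 became 2 with the L number as a factor over the 16 Q20 libraries. Over all 96 libraries they became 84 of 474 with it (56 of the 72 among them), against 89 of 474 without it (65 of the 72). They became 5 within L4 and 50 within L5, each with 1 library of one age (2 and 14 of the 72 among them). The counts were 49 to 89 under the other alternatives, among them 53 without a filter and 82 with DESeq2, and 50 to 79 with each library left out in turn, when all 72 kept their direction. The replicate block gave 68 calls; same-numbered mice did not deviate together (mean correlation 0.04), so the numbers were not taken as pairs.

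MI0004636, MI0000235, MI0004665 and MI0003521 kept their direction under every alternative in which they were tested. MI0004665 was not part of the alternative with whole values only, since its value was not whole in at least 1 Q20 library. Within L4 their adjusted p was 0.346, 0.516, 0.336 and 0.576, and within L5 MI0000235 (1.24, adjusted p = 0.0788) and MI0004665 (-1.01, adjusted p = 0.0962) were not called. With each library left out, their highest adjusted p was 0.00356.

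Calls in females (6) were 34 with library totals, 44 with DESeq2, 0 with the L number as a factor and 4 to 25 with a library left out, the most without 6-month female replicate 4. Calls in males (3) were 6, 20, 0 and 0 to 11, with 0 without 10-month replicate 1, 3 or 4 or 6-month replicate 2 or 4, and 11 without 10-month replicate 2. The 105 calls in the littermates were 67 with the L number and 74 to 109 with a library left out. The interactions stayed at 0 calls under all alternatives run. The difference in total counts was -244140 to 950418 with a library left out. The cause of these changes was not tested. The alternative without Q20 libraries below the connectivity limit was not run, since 0 were below it. Some comparison libraries were below it and stayed in the fits. They were of a 6-month Q140 male (Z = -10.0), a 10-month Q92 female (-9.37) and a 6-month Q50 male (-5.61). So were a 6-month wild-type littermate male of Q50 (-8.81) and of Q20 (-5.88). Without the latter, 74 hairpins were called in the littermates of Q20. With 8 mice per age, the median standard error was 0.20 for hairpins below 10 CPM, so small differences there were not detectable.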

Other observations

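One hairpin outside the tests showed counts in few libraries. It had 2288 counts in 1 Q20 library, of a 6-month male, and 106 in another, of a 6-month female, while the third highest value was 6 and 11 of the 16 Q20 libraries had none. In the whole series 10 libraries of 96 held more than 1000 counts of it, with a highest value of 20594, at both ages and in several genotypes. No hairpin had a count in all 8 libraries of one age and in none of the other.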
